A study of Mus musculus with 15 samples.

Results

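The comparison is between 2 thalamus libraries labelled as Maged1-cKO mice given cocaine and 4 libraries from control mice given saline, that is, 6 of the 14 libraries analysed here and of the 15 samples in the series. The 6 were chosen by their titles, as the cocaine contrast across unlike genotype labels in which every library has Maged1 above 110 TPM. The remaining cKO cocaine sample of the series was not analysed here. The other libraries were 4 labelled control cocaine and 4 labelled cKO saline, and these served for the estimate of the spread and for a second cocaine contrast that has no library in common with the first. All mice were males of a C57Bl6J background aged 2 to 4 months, from which the whole thalamus was microdissected. The cKO carries a floxed Maged1 and a Cre recombinase under the Vglut2 (Slc17a6) gene, so that exons of Maged1 are removed in glutamatergic Vglut2 neurons only, and the transcript of other cells is still measured. Controls are called Maged1 WT in the titles and Maged1 Loxp in the genotype tag, that is, the floxed gene without recombination. In 2 of the 4 control saline libraries, replicates 3 and 4, the tag names the cKO in place of the control, and in cKO saline replicates 1 and 2 it names the control (Maged1 Loxp) in place of the cKO. Every mouse first had 3 days of saline habituation and then 5 days of injections, with cocaine at 20 mg/kg or with saline. The labels do not say whether a library is 1 mouse or a pool, so p-values measure the spread between these libraries.

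Cocaine blocks the reuptake of dopamine, noradrenaline and serotonin, and repeated doses change gene expression across reward and arousal circuits. The thalamus relays and gates input to cortex and striatum through excitatory Vglut2 neurons, and its midline nuclei project to the nucleus accumbens. Maged1 is a MAGE family protein that acts in ubiquitin ligase complexes, and Usp7, studied with it, is a deubiquitinase. An injection is also a stressor, and adrenal glucocorticoids enter the brain and induce a known set of genes through the glucocorticoid receptor.

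The question put to these libraries was which thalamic transcripts differ between cocaine and saline in libraries with high Maged1 on both sides. Maged1 (ENSMUSG00000025151.16, chromosome X from 94535474 to 94542143 on the minus strand, GRCm38) had 163.5, 188.6, 167.7 and 165.6 TPM as deposited in the control saline libraries. It had 144.3 and 140.4 TPM in the cKO-labelled cocaine libraries, which goes against the label of a deletion. The libraries labelled cKO saline had 89.4, 86.8, 83.0 and 69.2 TPM and those labelled control cocaine 49.7, 76.7, 62.5 and 61.7 TPM. TPM, a measure of transcript abundance, is corrected for transcript length and for the library total. When each library was divided by a factor that centres most genes (trimmed mean of M values, TMM), the scaled TPM of Maged1 were 152.9, 167.3, 150.3 and 151.6 in control saline and 152.1 and 172.8 in the cKO-labelled cocaine libraries, so that the 2 sets overlapped on this scale, whereas in TPM as deposited both cocaine values lay below all 4 saline values. Maged1 was part of the choice of the libraries, so its value in the fit of all genes is not read as a test. Since the gene goes against the label, the cocaine libraries are named by their labels throughout, and no difference below is a measured effect of the deletion.

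**Figure D1:**
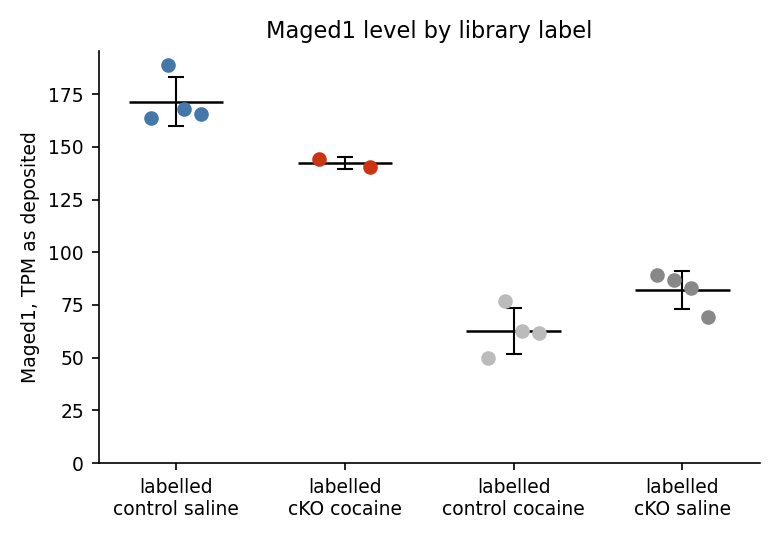
Maged1 in TPM as deposited (vertical axis) in each library (points) of the 4 labelled groups, with the mean (bar) and SD (error bar). The 2 libraries labelled cKO cocaine, at 144.3 and 140.4 TPM, lie nearer the control saline libraries than the 2 other groups, which reach at most 89.4 TPM.

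Usp7 had 18.4 to 20.5 scaled TPM in control saline and 18.4 and 18.3 in the cKO-labelled cocaine libraries (log2 fold change -0.08, standard error 0.04, adjusted p = 0.271, limma), a difference that did not pass the test. The label of thalamus was borne out by its markers. Tcf7l2, a transcription factor of the thalamus, had 74.5 to 91.4 scaled TPM in control saline and 97.0 and 107 in the cKO-labelled cocaine libraries, and Slc17a6, the vesicular glutamate transporter Vglut2, had 69.3 to 104 and 84.0 and 90.0. Control saline replicate 1 stood apart by choroid plexus RNA. Its 20 choroid plexus markers summed to 1826 scaled TPM, against 67.5 to 118 in the other control saline libraries and 65.3 and 69.5 in those labelled cKO cocaine. The TPM keep no record of sequencing depth, and the genes in the tables added up to 319293 to 333924 TPM for control saline and to 377401 and 339587 TPM for the cKO cocaine labels. The TMM factors were 1.07 to 1.13 in control saline and 0.949 and 0.813 in the cKO-labelled cocaine libraries. In the latter, 2 short transcripts, Gm20594 and Bc1, took 30.9% and 31.1% of the listed TPM, against 6.71% to 8.56% in control saline. Every cocaine value lay above every saline value, and the exact two-sided permutation test gave p = 0.133, the smallest that 2 libraries against 4 allow.

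Of 13471 genes tested in limma, 170 (1.26%) were called higher in the cKO-labelled cocaine libraries than in control saline and 126 (0.935%) were called lower. Genes were called where the p-value, adjusted by Benjamini-Hochberg, was under 0.05 and the change on the log2(scaled TPM + 0.5) scale was at least 0.5 in size. Protein-coding genes made up 148 of the genes called higher and 70 of those called lower. The median log2 fold change was 0.64 among the genes called higher and -0.68 among those called lower, against -0.01 over all tested genes. With no minimum on the fold change, 931 genes were higher and 1077 lower at the same adjusted p-value. Of the 170 genes, in 169 the 2 cocaine values exceeded each of the 4 saline values, and all 126 genes called lower had both below. Such separation was common, since 19.2% of all tested genes were separated upward and 21.3% downward.

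The counts depended on which cocaine library was kept. Without cKO cocaine replicate 2, 80 genes were called higher and 37 lower, and without replicate 1 the counts were 188 and 198. The single library left was assumed in these fits to vary like the other groups. Leaving out the libraries whose tag and title disagree, replicates 3 and 4 of control saline among them, gave 92 higher and 38 lower. TPM as deposited, whose median over all genes was -0.30, gave 56 higher and 1899 lower, so the direction of a gene is given here relative to the bulk of genes. Scaling to the sum of protein-coding genes shifted that median to -0.33 and gave 52 and 2476. Of the protein-coding genes, those called higher had a median GC content of 54.5% and those called lower of 43.6%, against 49.8% among all 12458 tested. Their median transcript lengths were 2415 and 2795 bases against 3522. With trends on GC content and length removed, 142 genes were called higher and 66 lower.

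**Figure D2:**
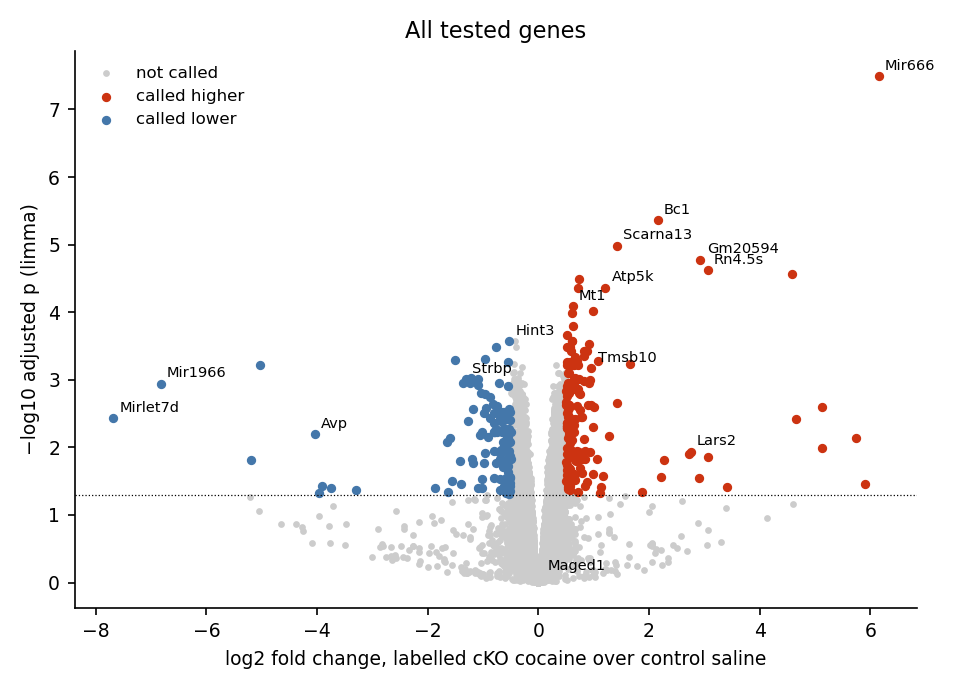
Each point is one of the 13471 tested genes, with the log2 fold change between the libraries labelled cKO cocaine and control saline (horizontal axis) against -log10 of the adjusted p from limma (vertical axis, dotted line at 0.05). Red points are the 170 genes called higher and blue points the 126 called lower. Maged1, which was part of the choice of the libraries, is labelled near the origin and is not read as tested.

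Among protein-coding genes with a mean of at least 5 TPM over the 6 libraries, the largest rise was in Gm20594 (chromosome 6 from 79817916 to 79818364, GRCm38), a short gene model. It had 6852, 10546, 8866 and 8631 scaled TPM in control saline and 60924 and 71314 in the cKO-labelled cocaine libraries (log2 fold change 2.93, standard error 0.21, adjusted p = 1.67e-05, limma). Lars2, the mitochondrial leucyl-tRNA synthetase, followed with 4.32 to 4.61 scaled TPM in control saline. Its values in the cocaine libraries were 18.5 and 59.4, which lay far apart from each other, and the log2 fold change of 2.75 had a standard error of 0.61. Without replicate 2 the adjusted p of Lars2 was above 0.05.

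Atp5k, a small subunit of the mitochondrial ATP synthase (chromosome 5 from 108433244 to 108434448), had 75.1, 79.4, 75.2 and 71.7 scaled TPM in control saline and 158 and 193 in the cocaine libraries. It rose by 1.21 on the log2 scale (standard error 0.10, adjusted p = 4.32e-05, limma), and every alternative kept the call, with values between 0.85 and 1.35. Hypk, a partner of the ribosome-bound N-terminal acetyltransferase, had 7.80 to 12.6 and then 24.1 and 29.9 scaled TPM, a rise of 1.43 (standard error 0.23). Hypk shares exons with Serf2 on the same strand, so its reads could be split, and Serf2 itself had a log2 fold change of 0.03 (adjusted p = 0.809). Llph, which has near-identical copies in the genome, rose by 1.08, and Pin4, a small peptidyl-prolyl isomerase, by 0.93. All 4 genes had no overlap between the groups, which the rule that chose them required.

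Prrt1, a membrane protein found with AMPA receptors, had 18.7, 21.6, 21.0 and 20.9 scaled TPM in control saline and 37.9 and 45.1 in the cKO-labelled cocaine libraries, a rise of 0.99 (standard error 0.09, adjusted p = 9.68e-05, limma). Tmsb10, the actin-monomer binding protein thymosin beta 10, had 136, 178, 162 and 166 against 314 and 310, a rise of 0.96 (standard error 0.12). Tnnt1, a troponin that in brain marks thalamic neurons, rose by 0.98 (standard error 0.26, adjusted p = 0.0248), from 12.1, 12.1, 19.3 and 19.3 to 30.2 and 30.8. The 2 pairs of equal saline values show how wide that group was, and the call was lost without either cocaine library and without control saline replicate 1 or 2. Zfp385a, a zinc finger protein, rose by 0.95, and Sgk1, a kinase induced by glucocorticoids, by 0.94. Tmem267, a membrane protein of unknown role, rose by 1.06.

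The largest fall of a protein-coding gene was in Avp, the precursor of the hypothalamic hormone vasopressin (chromosome 2 from 130580620 to 130582554). It had 69.6, 74.0, 43.8 and 16.4 scaled TPM in control saline and 1.1 and 4.05 in the cKO-labelled cocaine libraries (log2 fold change -4.04, standard error 0.80, adjusted p = 0.00645, limma). The saline libraries spread more than 4-fold among themselves, and without cKO cocaine replicate 1 the adjusted p of Avp was 0.0626. In the libraries labelled cKO saline Avp had 2.02, 3.94, 11.0 and 0.761 scaled TPM, and in those labelled control cocaine 0.464 to 2.1. Its log2 fold change was -5.08 between cocaine and saline libraries labelled control (adjusted p = 0.000345, limma). Between those labelled cKO it was -0.41 (adjusted p = 0.766, limma). In the contrast that shares no library it was -1.44 and not called (adjusted p = 0.133, limma). Hist1h4m, one of several nearly identical histone H4 genes, had 71.4 to 86.6 and then 26.9 and 34.6, a fall of -1.37 (standard error 0.19). Strbp, a double-stranded RNA binding protein of the testis and brain (chromosome 2 from 37483228 to 37703859), had 10, 8.51, 9.49 and 9.81 scaled TPM in control saline and 3.18 and 3.86 in the cocaine libraries. The fold change on the log2 scale was -1.31 (with standard error 0.18, adjusted p = 0.000985, limma).

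Moap1, a modulator of apoptosis, fell by 1.23 on the log2 scale (standard error 0.17), from 7.49 to 9.47 scaled TPM in control saline to 3.06 and 3.43. The overlapping readthrough model Gm20604, which contains 1166 bases of Moap1 without a mismatch, was called higher at 2.27 (adjusted p = 0.0154), so the division of reads between these models is uncertain. Rpl22l1, a paralogue of the ribosomal protein L22, had 94.6, 89.1, 85.2 and 84.2 against 52.6 and 38.2, with a fall of -0.97 (standard error 0.11, adjusted p = 0.000487, limma). Tfrc, the transferrin receptor through which cells take up iron, had 18.2 to 23.9 against 11.4 and 11.5 (-0.80, standard error 0.14). Igip, which encodes a short secreted peptide, had 29.3 to 31.8 against 19.5 and 15.9 (-0.77, standard error 0.08). Fth1, the ferritin heavy chain that stores iron, was in contrast called higher at 0.58, and it was named after its value was seen. Zfp488, a zinc finger repressor of the oligodendrocyte lineage, fell by 0.80, and Gm2004, a zinc finger gene with near-identical copies, by 0.96. Olfr613, Klk14 and 4930512M02Rik, the rest of the 12, had log2 fold changes of -0.98, -0.80 and -1.20, with transcripts that overlap or resemble other annotated ones. By adjusted p, Hint3 and Sar1b were among the clearest small falls, at -0.53 (standard error 0.05) and -0.55 (standard error 0.07).

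**Figure D3:**
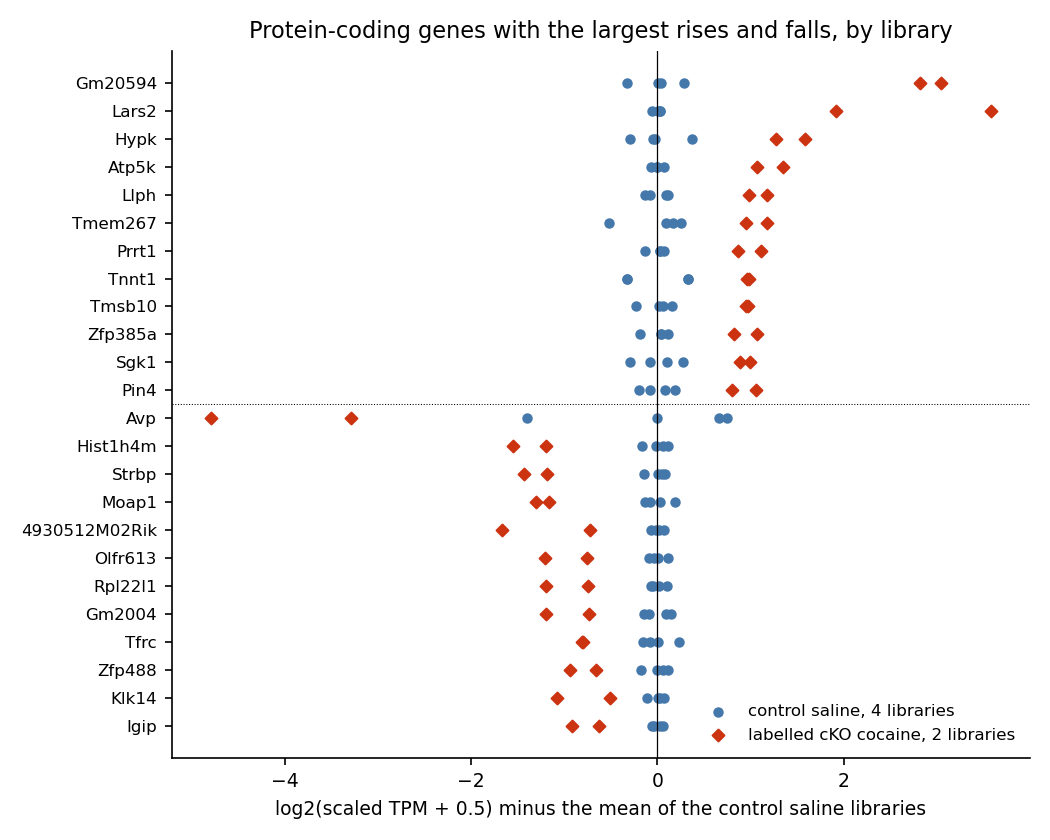
The 12 largest rises and 12 largest falls among protein-coding genes, by library, as log2(scaled TPM + 0.5) minus the mean of the 4 control saline libraries (horizontal axis). Blue circles are control saline and red diamonds are the 2 libraries labelled cKO cocaine. The diamonds lie outside the range of the saline libraries for each gene shown, because only genes without overlap were chosen. Avp is the widest among the saline libraries.

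The largest differences of all were in short noncoding RNAs. Of 206 tested microRNA, snoRNA and scaRNA genes, 9 were called higher and 14 lower, where 1.26% of all tested genes were called higher and 0.935% lower. Of these 23 called genes, 17 had an annotated length of at most 150 bases, about the size of a sequenced fragment. Such lengths were not counted among all 206. Mir666 (chromosome 12 from 109717085 to 109717183), in the imprinted Dlk1-Dio3 cluster of microRNA genes, had 1.30, 1.90, 2.87 and 1.83 scaled TPM in control saline and 140 and 210 in the cKO-labelled cocaine libraries (log2 fold change 6.15, standard error 0.24, adjusted p = 3.21e-08, limma). It had the smallest adjusted p of all tested genes. Mirlet7d, a member of the let-7 family, had 142, 98.1, 126 and 64.1 scaled TPM in control saline and was listed at 0 in the 2 cocaine libraries. Mir1966 had 60.0, 34.7, 60.9 and 79.1 and was also listed at 0 in both. Mir3072, in the same stretch of chromosome 12 as Mir666, was the reverse, listed at 0 in all 4 saline libraries and at 16.5 and 8.94 in the cocaine libraries. Mir1188, also on chromosome 12, fell by 0.70 (standard error 0.19), from 177 to 193 in control saline to 104 and 123.

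These 5 of the 10 called microRNA genes were called in the same direction in the contrast that shares no library, and their mature sequences (RefSeq, GRCm38.p6) are given so that they can be told from their relatives, with the seed, bases 2 to 8, in capitals.
mmu-miR-666-5p: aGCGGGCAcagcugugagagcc
mmu-miR-666-3p: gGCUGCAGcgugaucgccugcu
mmu-let-7d-5p: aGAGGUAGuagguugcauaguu
mmu-let-7d-3p: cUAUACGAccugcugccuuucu
mmu-miR-1966-3p: uUUCUGACucaacucucccuuag
mmu-miR-3072-5p: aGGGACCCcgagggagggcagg
mmu-miR-3072-3p: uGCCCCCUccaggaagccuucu
mmu-miR-1188-5p: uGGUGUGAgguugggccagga
mmu-miR-1188-3p: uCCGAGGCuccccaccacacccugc
Mature sequences were found for 9 of the 10 called genes, and no seed was shared by 2 of these genes. The let-7d-5p seed is that of the let-7 family and stands in 13 of the 1738 mature sequences of the table. The reads came from total RNA and not from a small RNA library. The values are those listed for the hairpin gene and cannot be read as levels of the mature forms. Mirlet7d, Mir1966 and Mir3072 also overlap exons of longer transcripts on the same strand, those of 6720427I07Rik, Ripor1 and Mirg. Their reads could be divided between these models.

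Of the other called microRNA genes, Mir453 and Mir1251 were listed at 0 in all 4 saline libraries and at 24.8 and 28 and at 16.4 and 17.3 scaled TPM in the cocaine libraries, and Mir488 was listed at 0 in 3 of the 4 saline libraries. Mir1969 and Mir1b were listed at 0 in both cocaine libraries. In all, 5 of the 9 short RNA genes called higher were at 0 in every saline library and 7 of the 14 called lower were at 0 in both cocaine libraries. The values of such genes came in steps. Mir1251 and Snord88c, on different chromosomes, had equal TPM in both cocaine libraries, and Mir666 had 2.00 and 5.00 times the TPM of Snord8. In the 6 libraries, 26.2% to 47.8% of the short RNA genes above 0 shared their exact TPM with another short RNA gene. The number of fragments behind these values is not known from TPM.

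Scarna13, a guide RNA of the Cajal body, had 121, 139, 113 and 113 scaled TPM in control saline and 318 and 329 in the cKO-labelled cocaine libraries, a rise of 1.42 (standard error 0.10, adjusted p = 1.04e-05, limma). Scarna6 moved the other way, from 204 to 214 down to 103 and 105 (-1.01, standard error 0.20). Snord17 had 186 to 215 against 73.8 and 74.9 (-1.42), and Snora74a 440 to 555 against 140 and 184 (-1.65). Among the 57 tested snoRNA and scaRNA genes of the list, 4 were called higher and 8 lower, against 1.26% and 0.935% of all tested genes. The median log2 fold change of the list was -0.24. Without cKO cocaine replicate 2 the counts were 2 and 3, and 4 were lower without replicate 1. Bc1, a rodent-specific brain RNA that represses translation at synapses, had 13176, 14800, 11877 and 14324 scaled TPM against 61816 and 58831 (2.16, standard error 0.13, adjusted p = 4.32e-06, limma). Rn4.5s rose from 138 to 206 up to 1252 and 1681 (3.06, standard error 0.23). Snora3 had 12.1 to 22.9 and was listed at 0 in both cocaine libraries. All of its bases also lie in an annotated transcript of the ribosomal protein gene Rpl27a, so its reads could be divided. 1700128F08Rik, a transcribed pseudogene, fell by 1.5 (standard error 0.17).

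Several genes that glucocorticoids induce were called higher in the cKO-labelled cocaine libraries. Of 21 tested genes on this list, 7 were called higher and 0 lower, where 1.26% of all tested genes were called higher, and 19 had a positive log2 fold change, with a median of 0.33. Mt1, a metallothionein that binds zinc and copper (chromosome 8 from 94179082 to 94180327), had 153, 154, 145 and 154 scaled TPM in control saline and 237 and 229 in the cocaine libraries (log2 fold change 0.62, standard error 0.06, adjusted p = 8.13e-05, limma). Its neighbour Mt2 had 74.2, 83.0, 74.8 and 84.1 against 135 and 125 (0.72, standard error 0.10). In both metallothioneins the cocaine libraries lay above the whole saline range.

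Sgk1, the serum and glucocorticoid regulated kinase, had 18.8, 12.6, 16.7 and 14.6 against 31.3 and 29.2. Arrdc2, an arrestin-domain protein, had 2.69 to 2.85 against 5.21 and 5.00 (0.77, standard error 0.14). Ddit4, an inhibitor of mTOR signalling, had 14.3 to 15.9 against 21.0 and 23.4 (0.55, standard error 0.14). Plin4, a lipid droplet protein, was low, at 0.63 to 1.06 against 2.94 and 2.10 (1.17, standard error 0.31). The seventh gene was the clock gene Per1, described with the clock. Fkbp5, a chaperone of the receptor often used as an index of its activity, had 4.64 to 5.07 against 4.99 and 4.99 scaled TPM (0.03, adjusted p = 0.908), and Tsc22d3 had 31.0 to 36.9 against 38.8 and 35.7 (0.17, adjusted p = 0.145), so neither differed beyond the spread. With each other scaling the list median stayed 0.34 to 0.38 above that of all genes. The count of 7 was 2, with 1 lower, on TPM as deposited, 4 without cKO cocaine replicate 1, 3 without replicate 2 and 2 with the agreeing tags alone.

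The clock and the immediate early genes, which follow neuronal activity, gave fewer calls than the glucocorticoid list. For these lists the time from the last injection to dissection matters, and it is not given in the sources used here. The counts stand beside 1.26% of all tested genes called higher and 0.935% called lower. Of 21 tested clock genes, 2 were called higher, 0 lower, and the median was 0.11. Nr1d1, the nuclear receptor Rev-erb alpha, had 23.7, 26.0, 29.2 and 28.3 scaled TPM in control saline and 37.3 and 42.3 in the cKO-labelled cocaine libraries (0.56, standard error 0.09, adjusted p = 0.00238, limma), although its last exon overlaps that of Thra on the opposite strand. Per1 had 12.9, 11.9, 14.1 and 13.8 against 17.6 and 21.8 (0.55, standard error 0.14, adjusted p = 0.02, limma). Per2 was under the fold minimum at 0.45 (adjusted p = 0.00602). Of 26 tested immediate early genes, 2 were called higher and 0 lower, with a median of 0.22. Egr1, a zinc finger transcription factor, had 7.44, 8.83, 8.21 and 9.97 against 13.5 and 12.8 (0.59, standard error 0.13), and Gadd45g, a growth arrest gene, had 5.33 to 7.26 against 8.42 and 11.8 (0.64, standard error 0.17). Fos had 2.80, 5.50, 4.69 and 4.85 against 6.20 and 8.37 and did not pass the test (0.67, standard error 0.32, adjusted p = 0.191). Without cKO cocaine replicate 2, 0 genes of either list were called, and without control saline replicate 3 the immediate early count was 1. Of 18 secondary activity-regulated genes 0 were called, with a median of -0.07. At the shares called over all tested genes, 0 calls say little about a list this short.

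**Figure D4:**
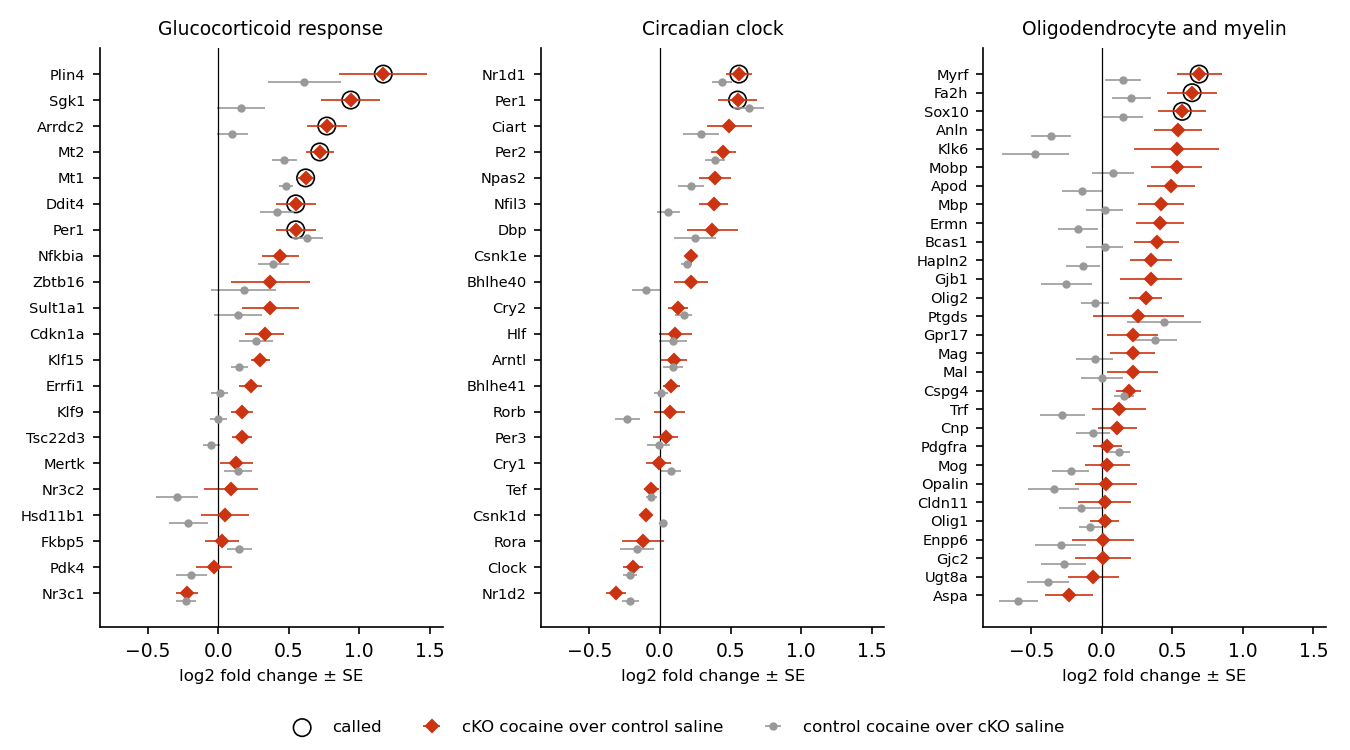
Log2 fold change with its standard error (horizontal axis) of tested genes on 3 lists (1 oligodendrocyte gene is not drawn), for the libraries labelled cKO cocaine over control saline (red diamonds) and for those labelled control cocaine over cKO saline (grey circles). Circled diamonds are called, 7 of 21 glucocorticoid response genes, 2 of 21 clock genes and 3 of 30 oligodendrocyte genes. Of all tested genes, 1.26% were called higher and 0.935% lower. Most oligodendrocyte genes lie to the right of the grey circles.

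For 3 of these genes the 250 bases before the RefSeq start (promoter table, GRCm38.p6) are shown, since Mt1 and Mt2 are neighbours that moved together and Per1 is on both lists. Capitals mark the glucocorticoid response element (an inverted repeat with a 3-base spacer), the metal response element in either of the spellings TGCACNC and TGCGCNC, and the E-box CACGTG, each sought on both strands. The cAMP response element TGACGTCA was sought as well and was in none of the 3 windows.
Mt1, chr8:94178839-94179088, plus strand: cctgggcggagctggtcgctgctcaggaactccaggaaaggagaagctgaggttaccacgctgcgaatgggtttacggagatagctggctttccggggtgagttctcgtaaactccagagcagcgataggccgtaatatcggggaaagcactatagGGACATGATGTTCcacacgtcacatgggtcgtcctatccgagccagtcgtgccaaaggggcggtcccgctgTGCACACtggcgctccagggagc
Mt2, chr8:94172368-94172617, plus strand: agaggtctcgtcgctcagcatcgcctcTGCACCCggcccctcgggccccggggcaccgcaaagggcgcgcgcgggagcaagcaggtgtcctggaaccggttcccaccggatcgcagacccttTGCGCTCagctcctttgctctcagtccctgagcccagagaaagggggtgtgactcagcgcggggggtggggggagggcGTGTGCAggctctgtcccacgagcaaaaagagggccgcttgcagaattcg
Per1, chr11:69098699-69098948, plus strand: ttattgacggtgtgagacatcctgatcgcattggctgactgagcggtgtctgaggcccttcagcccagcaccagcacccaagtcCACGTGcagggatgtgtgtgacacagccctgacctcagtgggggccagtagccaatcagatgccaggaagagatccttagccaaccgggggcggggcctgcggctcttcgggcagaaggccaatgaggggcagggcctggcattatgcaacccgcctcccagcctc
The Mt1 window held the glucocorticoid element once, 94 bases before the start, and the metal response element once. The Mt2 window held the metal response element 3 times, and the Per1 window an E-box, 166 bases before a RefSeq start that lies 3732 bases from the GENCODE one. Over 18048 promoter windows of this length, 0.399% held the glucocorticoid element, 24.4% the metal response element at least once and 1.6% at least 3 times, 6.78% the E-box and 2.05% the cAMP element. The glucocorticoid element was absent from the windows of Arrdc2, Ddit4, Plin4 and Sgk1. A match of letters does not show binding.

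Most oligodendrocyte and cytoskeletal genes had positive log2 fold changes. In bulk tissue, more cells of a type and more RNA per cell cannot be told apart. Of 30 tested oligodendrocyte and myelin genes, 27 had a positive log2 fold change, with a median of 0.22. Where 1.26% of all tested genes were called higher and 0.935% lower, 3 of this list were called higher and 0 lower. These were Myrf, the transcription factor that switches on myelin genes, with 9.44, 9.84, 10.8 and 9.31 scaled TPM in control saline and 15.7 and 16.6 in the cKO-labelled cocaine libraries (0.69, standard error 0.16, adjusted p = 0.0126, limma), Sox10, a factor of the whole lineage (0.57, standard error 0.17), and Fa2h, which hydroxylates myelin lipids (0.64, standard error 0.18). Mbp, which encodes myelin basic protein, did not pass the test, at 0.42 (adjusted p = 0.0995). The summed level of the list was 1988 to 2524 scaled TPM in control saline and 2652 and 2585 in the cocaine libraries. The count was 0 without cKO cocaine replicate 2 and 1 without replicate 1 or without control saline replicate 2, 3 or 4. It was 5 without control cocaine replicate 1 or 3.

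Over all tested genes 1.26% were called higher and 0.935% lower, and at these shares 1 call says little about a short list. Among 36 actin and cytoskeleton genes 5 were called higher and 0 lower, and the median was 0.13. Besides Tmsb10 these were the neurofilament chains Nefm, with 31.8, 32.6, 38.0 and 42.4 against 60.7 and 69.1 scaled TPM (0.84, standard error 0.20), and Nefh, with 29.2 to 36.7 against 50.7 and 59.9 (0.68, standard error 0.15). Nefl, the light chain, had 95.2 to 112 against 108 and 118 and did not pass the test (0.14, adjusted p = 0.39). Tubb4a, a tubulin of neurons and oligodendrocytes, rose by 0.51 and Arpc3, a subunit of the actin nucleator Arp2/3, by 0.51. Without cKO cocaine replicate 2 the count was 1. Chgb, chromogranin B of dense core vesicles, had 36.8, 37.8, 34.3 and 34.7 against 60.0 and 72.5 (0.87, standard error 0.10, adjusted p = 0.000381, limma) and was the 1 gene called higher of 32 neuropeptide genes, of which Avp was called lower. Of 30 synaptic vesicle genes 1, Syn1, was called higher at 0.54, with a median of 0.12, and the count was 0 without cKO cocaine replicate 2. Of 22 thalamic identity genes Tnnt1 and Synpo2 (0.50, standard error 0.14) were called higher and 0 lower, with a median of 0.21, and the count was 0 without control saline replicate 1 or 2 or cKO cocaine replicate 2 and 1 without cKO cocaine replicate 1. Cryab, a small heat shock protein abundant in oligodendrocytes, was the 1 gene called of 31 chaperones (0.73, standard error 0.17), and this call was lost without either cocaine library.

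With each scaling the medians of the glucocorticoid, immediate early, oligodendrocyte, thalamic and cytoskeletal lists stayed above that of all genes. On the raw scale of TPM as deposited, the medians of all of these but the glucocorticoid list were negative, at -0.08 for the immediate early and oligodendrocyte lists, -0.11 for the thalamic and -0.18 for the cytoskeletal list.

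Over all tested genes 1.26% were called higher and 0.935% lower, and the counts of ribosomal and mitochondrial genes are given beside these shares. At any fold size, 24 of 84 ribosomal protein genes and 30 of 84 genes of oxidative phosphorylation had an adjusted p under 0.05, where 14.9% of all tested genes had one. Of the 84 ribosomal protein genes 4 were called higher, among them Rpl21, Rpl29 and Rpl31 at 0.51 to 0.64, and 1, Rpl22l1, lower, and the median was 0.01. Without cKO cocaine replicate 2 or control saline replicate 1 the count higher was 1. Rpl21, Rpl29 and Rpl31 have near-identical copies that could share reads. Of 84 genes of oxidative phosphorylation 3 were called higher, Atp5k, Cox5b (0.53, standard error 0.07) and Cox6a2 (0.53, standard error 0.15), and 0 lower, with a median of 0.03, and the count was 1 without cKO cocaine replicate 2. Among 34 tested histone genes, H1f10 and Hist1h2br were called higher (0.57 and 0.55) and Hist1h4m lower, and neither rise was called without either cocaine library. The genes of H2A ubiquitination gave no call, which says little about lists this short at the shares called over all tested genes. Of 30 subunits of PRC1, the Polycomb complex that ubiquitinates H2A, 0 were called and 8 had an adjusted p under 0.05 below the fold minimum (14.9% over all tested genes), with Auts2 at 0.43 (standard error 0.09) and Fbrs at 0.30 (standard error 0.05). Of 13 PRC2 subunits 0 were called and 3 had an adjusted p under 0.05, among them Suz12 at -0.23 (standard error 0.07). Of 13 H2A deubiquitinases and 9 MAGE family genes 0 were called, and Mageh1 was at -0.34 (standard error 0.07, adjusted p = 0.00648, limma).

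Marker genes of neighbouring regions varied widely between libraries. Hypothalamic markers summed to 286, 567, 294 and 176 scaled TPM in control saline and to 95.4 and 138 in the cKO-labelled cocaine libraries. Both cocaine values lay below the control saline range but within the 40.5 to 182 of the libraries labelled cKO saline. Those labelled control cocaine had 30.3 to 164. Of 15 tested, 13 had a negative log2 fold change, with a median of -0.73, and 2 were called lower, Avp and Otp, a homeobox gene of hypothalamic neurons (-1.57, standard error 0.44). Oxt, the oxytocin precursor, had 101, 180, 182 and 87.9 against 8.72 and 52.4 and did not pass the test (-2.57, standard error 0.95, adjusted p = 0.088). The part of dissection in the fall of Avp was not tested. Without cKO cocaine replicate 1 the count was 0 lower, and it was 1 without replicate 2 or without control saline replicate 1, 2 or 3. Markers of the habenula, which adjoins the thalamus, had 17 of 18 negative log2 fold changes with a median of -0.39 and 0 calls. Their sums of 145 to 188 and of 157 and 111 scaled TPM overlapped. With 1 of the 6 libraries left out the habenula median ranged from -0.76 to 0.03. In the contrast that shares no library all 18 were positive, with a median of 0.83. Of 8 tested choroid plexus markers 0 were called and all 8 were negative, with a median of -0.67. Their defining gene Ttr had 1410, 11.0, 13.4 and 51.2 against 6.08 and 9.82. Of 28 genes of motile cilia 0 were called, with a median of -0.07. Cortical, striatal and reticular thalamic markers also gave 0 calls, with medians of 0.13, 0.12 and 0.36. Where 1.26% of all tested genes were called higher and 0.935% lower, 0 calls say little about lists this short. Without control saline replicate 1 the whole comparison gave 141 genes higher and 102 lower.

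Of the other cell types, 0 of 24 astrocyte genes were called, with a median of 0.11, and Apoe was at 0.35 (adjusted p = 0.0116) and Mlc1 at -0.24 (adjusted p = 0.0111). For microglia 0 of 21, for endothelial and mural cells 0 of 24, for blood 0 of 6 and for interferon response 0 of 14 genes were called, with medians of 0.12, 0.03, -0.12 and -0.06. Fn1, fibronectin, was the 1 gene called of 11 fibroblast and meninges genes, higher at 0.66 (standard error 0.16) where the list median was -0.27, and the count was 0 without either cocaine library. Lists of neuronal signalling, matrix and cholesterol synthesis genes gave no call either. With 1.26% of all tested genes called higher and 0.935% lower, 0 calls say little about lists this short. These were 26 monoamine and muscarinic receptors (median 0.04, with the histamine receptor Hrh3 at 0.45 and adjusted p = 0.0295), 7 opioid genes (-0.22), 17 ionotropic glutamate receptors (-0.03), 28 GABA and glycine genes (-0.05, with Gabrg1 at -0.49 and adjusted p = 0.0143), 17 burst-firing channels (0.10), 34 cAMP signalling genes (0.01), 13 C1q-like and cerebellin genes (-0.03), 26 matrix genes (0.04) and 23 cholesterol synthesis genes (-0.03). On TPM as deposited, where the median of all genes is -0.30, the positive medians of the lists in this paragraph were negative.

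The 4 libraries labelled control cocaine and the 4 labelled cKO saline gave a second cocaine contrast without a shared library. There Maged1 was low on both sides, and 132 genes (0.98%) were called higher and 160 (1.19%) lower. Of the 170 genes called higher here, 68 (40%) were called higher there, which is 51.5% of its 132. Of the 126 called lower, 54 (42.9%) were called lower there, which is 33.8% of its 160. A call in opposite directions occurred in 0 genes. Both contrasts used the same estimate of the spread of each gene, so their calls are not independent although no library is shared. Of the genes called higher 162 had a positive log2 fold change in the other contrast, with a median of 0.47 against 0.64 here, and of those called lower 117 had a negative one, with a median of -0.51 against -0.68. Across all 13471 genes the log2 fold changes had a Pearson r of 0.49 and a Spearman rho of 0.56, given as a description, since genes are not replicates and libraries of both contrasts differ in the share of Gm20594 and Bc1.

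**Figure D5:**
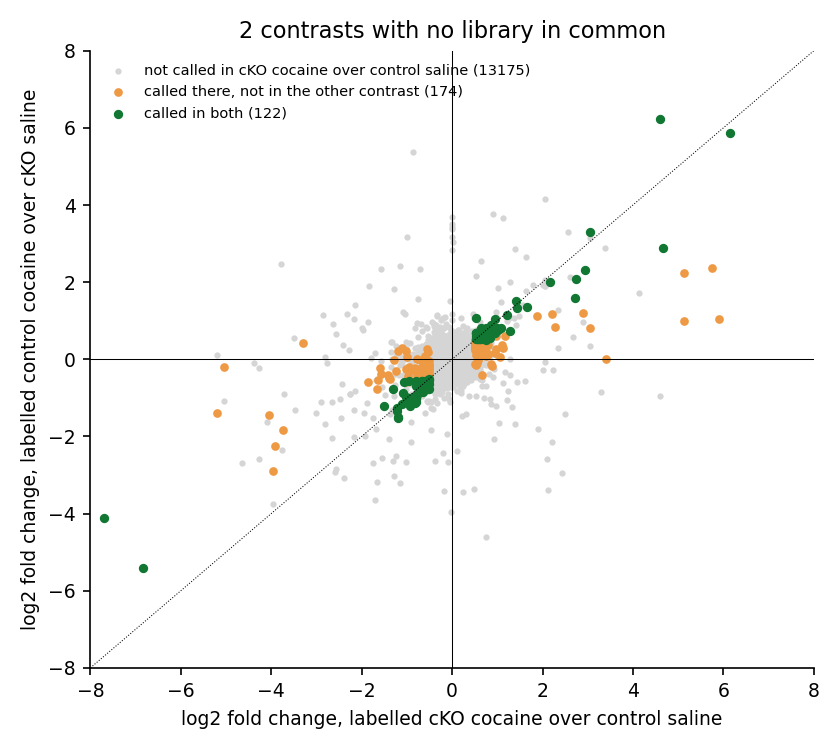
Log2 fold change of each tested gene in the cKO-labelled cocaine libraries over control saline (horizontal axis) and in those labelled control cocaine over cKO saline (vertical axis), with no library in common. Green points are the 122 genes called in both in the same direction (68 higher and 54 lower), orange points the 174 called in the first only, and the dotted line marks equal values.

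Among the 47 protein-coding genes with a mean of at least 5 TPM that were called higher in both, the smallest adjusted p-values were those of Gm20594, Ccdc124, Atp5k, Atpif1, Prrt1 and Edf1. Ccdc124, a ribosome-associated protein, rose by 0.74 (standard error 0.06) here and 0.82 (standard error 0.05) in the other contrast. Atpif1, the inhibitor of the mitochondrial ATP synthase, rose by 0.71 and 0.60, and Edf1, which acts at collided ribosomes, by 0.60 and 0.61. Their levels were 26.9 to 31.4, 23.5 to 25.9 and 57.7 to 61.9 scaled TPM in control saline and 50.1 and 48.6, 41.7 and 39.9, and 86.2 and 94.9 in the cKO-labelled cocaine libraries. Among the 15 called lower in both were Igip (-0.77 and -0.70), Strbp (-1.31 and -0.77), Gm2004 (-0.96 and -0.56), Zfp966 (-0.66 and -0.75), Olfr613 (-0.98 and -1.05) and Synj2bp, an outer mitochondrial membrane protein (-0.67 and -0.64).

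On the glucocorticoid list the values of both contrasts stood as follows. Sgk1 and Arrdc2 had log2 fold changes of 0.94 and 0.77 here and 0.16 and 0.10 there, and of the 7 genes called here 1, Per1, was called there, with a list median of 0.15. For Myrf, Sox10 and Fa2h the values were 0.69, 0.57 and 0.64 here and 0.15, 0.15 and 0.21 there, where the list median was -0.10. Mt1 and Mt2 had 0.48 and 0.47 there, just under the fold minimum. The difference between the contrasts was tested directly. In limma 0 genes (0.0%) were called for it, and the smallest adjusted p was 0.0781, while 1088 genes (8.08%) had an unadjusted p under 0.05. For Sgk1, Arrdc2 and Myrf its adjusted p was 0.555, 0.501 and 0.555, so that a difference between the contrasts was not detected. The genes with the smallest adjusted p were Snora5c, Dpcd, Snora3, Nbdy, Kctd16 and Cdk9. Snora5c had 0 to 0.939 scaled TPM in control saline and was listed at 0 in the 2 cocaine libraries, whereas it rose by 5.37 (standard error 0.53) in the other contrast. Dpcd, a cilium protein gene, had 15.5 to 17.2 against 13.5 and 12.5 (-0.32, standard error 0.05) and 0.11 in the other contrast (adjusted p of the difference 0.105, limma).

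The contrasts within a label share libraries with those above, and their values are given side by side. Atp5k had log2 fold changes of 1.30 between the cocaine and saline libraries labelled control and 1.06 between those labelled cKO, and Mt1 0.55 and 0.55. Maged1 itself had -1.09 and 1.17 in these, where the libraries compared lie on different levels of the gene. Moap1 had -0.39 and -1.15, and Sgk1 0.17 and 0.93.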

How the data were processed

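RNA from microdissected thalamus, depleted of ribosomal RNA, was sequenced as stranded paired-end libraries. According to the study's methods and the submitters' processing notes, the authors mapped reads to GRCm38 with STAR 2.5.3a, quantified transcripts with salmon and summed them per gene with tximport. The deposited values are TPM per gene symbol. Of the 14 deposited tables, 2 write decimals with a comma (unit other), and the values the authors gave there are TPM too. TPM hold no depth, so counting error is unknown and a count test was not used.

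Here TPM were divided by unweighted TMM factors (30% of log ratios and 5% of means trimmed), 0.5 was added and log2 taken. Genes reaching 1 TPM in 3 libraries or more (13471) entered limma 3.58.1 under R 4.3.3, where each of the 4 groups had its own mean, all 14 libraries shared the spread, and an intensity trend was used. Single values were compared by exact permutation. Groups follow the sample titles. Lengths, GC content and coordinates are those of GENCODE M21 (GRCm38), matched for 97.9% of tested genes, and near copies were sought with blastn 2.17.0 (95% identity). Python 3.11.15, numpy 2.4.6, pandas 2.3.3 and scipy 1.17.1 served for the rest.

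The comparison, the gene lists and the naming rule were chosen with earlier results of these data known. Genes named are Maged1 and Usp7, the 12 largest rises and falls among called protein-coding genes without overlap and with a mean of 5 TPM, the 4 smallest adjusted p-values in each direction, the 3 largest rises and falls of other genes, 6 in each direction called in both contrasts, the 6 smallest for the difference, and called or leading members of lists. Fos, Fkbp5, Tsc22d3, Mbp, Oxt, Ttr, Slc17a6, Tcf7l2, Nefl, Per2, Gm20604, Serf2 and Fth1 were added after their values were seen. Some members of the lists are not reported here by name. The fit was tested on simulated data for this comparison. A log2 change of 1 was put into 200 of 13270 genes, of which 95.5% were called, with 4 false calls. That change is larger than the medians of the genes called in the data, 0.64 for those higher and -0.68 for those lower. Smaller changes were not simulated, and recovery was not split by expression level. The simulated shares are therefore not read as the recovery or the error rate of the calls reported here. Alternatives were other scalings, pseudocounts and filters, GC and length trends removed, a replicate block, the libraries with the same genotype in tag and title, the 6 libraries alone and each library left out.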

Additional observations from a re-analysis of the deposited data

Results flagged for a closer look

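Within control saline, 187 genes and lists were examined for a library far from the other 3, by the gap to its nearest neighbour as a share of the range of log2 values (Dixon's criterion for 4 libraries), and 14 were flagged, where chance gives about 5%. Replicate 1 was high for Rheb (0.88, 35.1 against 33.4 to 33.6 scaled TPM), Prlr (0.832, 3.85 against 1.52 to 1.80), Fa2h (0.882, 12.9 against 10.3 to 10.6), Fn1 (0.934, 4.19 against 2.64 to 2.72) and Scarna3a (0.842, 40.2 against 13.3 to 15.9) and low for Hist1h2br (0.936, 8.77 against 12.6 to 12.9). It was also high for the choroid plexus list (0.843, mean log2 level 4.64 against 2.15 to 2.54) and the fibroblast and meninges list (0.882, 2.76 against 1.58 to 1.72). Replicate 2 stood apart for Pmvk (0.895, 18.1 against 19.9 to 20.1). Maged1 was flagged in it as well (0.84, 167 against 150 to 153 scaled TPM). That gene was part of the choice of the libraries, so its flag is not read as a test. Replicate 3 stood apart for Mt1 (0.871, 145 against 153 to 154), Mir488 (1.0, 13.1 where the others were listed at 0) and the glucocorticoid list (0.884, 3.10 against 3.15 to 3.16). Replicate 4 was low for the reticular thalamus list (0.84, 2.51 against 3.32 to 3.47). Flags in such narrow ranges, as for Rheb or Mt1, are small in size.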

How the results depend on the processing

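Of 86 called genes named in the text, 1993 of 2302 values under the alternatives kept direction and side of the threshold, 309 fell short of it and 0 reversed. Genes called higher numbered 92 and genes called lower 38 with the agreeing tags alone, 56 and 1899 with TPM as deposited, 52 and 2476 with scaling to protein-coding genes, and 931 and 1077 without a fold change minimum. Genes called lower numbered 66 with GC and length trends removed and 74 with a filter at a mean of 5 TPM. Leaving out each library in turn gave 80 to 188 higher and 37 to 198 lower. In the contrast without a shared library, the counts higher and lower were 85 and 101 with the trends removed, 85 and 74 with the stricter filter, 38 and 3266 with TPM as deposited, 52 and 1441 with protein-coding scaling and 1548 and 1536 without the fold minimum, and 98 lower with agreeing tags. Leaving out libraries gave 113 to 163 and 145 to 213. The difference between the contrasts gave 1 gene with the stricter filter (Snora5c), 3 with no filter (Snora5c, Gm7607 and 1600010M07Rik), 1 with a pseudocount of 0.1 (Snora3) and 0 to 5 with a library left out, above 0 without cKO cocaine replicate 1, control saline replicate 3, control cocaine replicate 1, 2 or 3 or cKO saline replicate 3 or 4. Leaving out the libraries of the other 2 groups was added after seeing the data. Same-numbered libraries did not deviate together (mean correlation -0.014 over 18 pairs, against 0.005 over 54 with different numbers). With the replicate block, 164 genes were called higher and 121 lower, 121 and 147 in the other contrast and 0 for the difference. With Gm20594 and Bc1 the call was lost with no filter, and for Bc1 with quantile scaling (0.35). Of 1134 list medians 966 moved by less than the spread between saline libraries. Lists with 0 calls had at most 1 when a single library was left out. The cause of these shifts was not tested. TPM give no depth, so small values carry an unknown counting error.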

Other observations

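Rnu11, a small nuclear RNA of the minor spliceosome, was called higher at 2.72, and Rnu6, of the major spliceosome, lower at -1.06, both also called in the other contrast, and Gas5, a host of snoRNAs, was called higher at 0.55. Pcp4, a calmodulin regulator of neurons, was called higher at 0.73 and in both contrasts. Cebpb, a transcription factor of stress responses, and Adm, adrenomedullin, were called higher at 1.13 and 0.79. These genes were chosen after their values were seen. The 2 libraries labelled cKO cocaine differed from each other by a median of 0.12 on the log2 scale over tested genes, and pairs of control saline libraries by 0.07 to 0.11.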
